A study of Mus musculus with 4 samples.

Results

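The 10 genes described here encode enzymes that remove reactive oxygen species or are switched on by the transcription factor Nrf2: Hmox1, Nqo1, Gclc, Gclm, Txnrd1, Srxn1, Sod1, Sod2, Cat and Prdx1. The rule goes by gene name and uses no ratio. The genes were found through the gene symbols of the array platform, most of them updated by Entrez identifier. All 10 were present, on 21 of the 18218 features with 1 gene symbol and as 10 of 16504 genes. Frontal cortex RNA from male ddY mice, 13 weeks old, was measured on 4 dual-colour Agilent arrays, 1 per antipsychotic drug, after 28 days of daily intraperitoneal injection. The drug groups were chlorpromazine and thioridazine, both at 25 mg/kg, olanzapine at 1.25 mg/kg and quetiapine at 18.75 mg/kg. On every array the drug RNA, in cyanine 5, was hybridised together with RNA of vehicle-injected mice, in cyanine 3. Drugs were given in saline with acetic acid; what the vehicle injection held is not described further. ddY is an outbred laboratory stock. The sources used here do not give the number of mice behind each array, or say if the 4 arrays shared their vehicle RNA.

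Values are log2 ratios of drug over vehicle, converted from deposited values that were read as log10. That scale and direction are likely, from the dyes and the software, but are not stated for the table. If the values were log2 already, the highest ratio of Cat would be 1.16-fold and not 1.66-fold. If the direction were the reverse, every sign would turn. Each drug has 1 array, so no drug was tested alone. In the test against 0 the 4 drugs stand as replicates of treatment, so differences between mice and differences between drugs cannot be told apart in its error. Dyes were not swapped, so a dye bias cannot be told apart from a change common to the 4 drugs, nor can a deviation in a vehicle RNA that the arrays shared.

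Nrf2, encoded by Nfe2l2, is held in the cytoplasm and marked for degradation by Keap1 and the ubiquitin ligase scaffold Cul3. Oxidants and electrophiles disable Keap1, and Nrf2 then enters the nucleus, pairs with a small Maf protein and binds antioxidant response elements. Its targets make glutathione, reduce thioredoxin and quinones and break down haem. In the brain the pathway is known mainly from astrocytes. The superoxide dismutases and catalase, by contrast, are present in most cells without induction, and turn superoxide into hydrogen peroxide and hydrogen peroxide into water.

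The core of the antioxidant response element, TGACNNNGC, was looked for on both strands of the start-site windows of RefSeq genes (build GRCm38.p6), which run from 250 bases before to 50 bases after the start. Windows were matched for 8 of the 10 genes, all but Hmox1 and Gclc. These letters were found for 5 of the 8 genes, namely 3 of 4 Nrf2-induced and 2 of 4 constitutive genes, against 14% of all genes and 12.4% of all windows. The matches are shown because the element is the sequence through which Nrf2 is known to act on its targets. In all 5 the motif is on the strand opposite to the gene, so its complement GCNNNGTCA stands in capitals in the gene's own direction, 5′ to 3′.
Gclm: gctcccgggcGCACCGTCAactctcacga
Txnrd1: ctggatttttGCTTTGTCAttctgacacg
Srxn1: gcagtgggcaGCTAGGTCAgagtgagaca
Sod1: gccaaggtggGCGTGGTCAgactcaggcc
Prdx1: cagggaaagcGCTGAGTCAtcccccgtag
The stretches lie on the plus strand at chr3:122245413-122245441 (Gclm), chr10:82859104-82859132 (Txnrd1), chr2:152105542-152105570 (Srxn1), chr16:90220696-90220724 (Sod1) and chr4:116685456-116685484 (Prdx1). Counted from the start site, the capitals began at base -134 in Gclm, -133 in Prdx1, -92 in Txnrd1, -56 in Sod1 and 29 in Srxn1. Of the 3 start sites listed for Txnrd1, 1 had the motif. A match describes letters only, and occupancy by Nrf2 was not measured.

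None of the 10 genes passed the limma test of the 4-array mean against 0 at an adjusted p of 0.05, a test that called 24 of 16139 genes (0.149%), and 0 genes with any 1 array left out. No gene of the 10 reached 2-fold from vehicle on any array, where 1.69% of genes did so after chlorpromazine, 4.52% after thioridazine, 7.97% after olanzapine and 3.74% after quetiapine. Of the 40 ratios 2 passed 1.5-fold: Txnrd1 after chlorpromazine and Cat after thioridazine. At 1.5-fold the background was 6.91%, 13.4%, 17.4% and 12.6% of genes for the drugs in that order. The median absolute log2 ratio of the 10 genes was 0.14 after chlorpromazine, 0.15 after thioridazine, 0.17 after olanzapine and 0.064 after quetiapine, and that of all genes was 0.14, 0.21, 0.21 and 0.19. The antioxidant genes were thus about as far from vehicle as genes at large after chlorpromazine, and nearer to it with the other drugs.

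Within those small ratios 7 of 10 genes kept 1 sign on the 4 arrays, against 40.3% of all genes. Hmox1, Nqo1, Gclc, Sod1 and Cat lay above 0 on 4 of 4, as did 21.4% of all genes, and Txnrd1 and Prdx1 lay below 0 on 4 of 4, as did 18.9%. The 5 genes above 0 were also the 5 with an unadjusted limma p under 0.05; such a p came with a higher mean in 11.9% of the genes tested. None of the 10 had one with a lower mean, against 14.2% of all genes (26.2% in either direction). The count of 5 became 2 when the chlorpromazine or the olanzapine array was left out, 1 when thioridazine was, and 3 when quetiapine was. The share of all genes with such a p, in either direction, was then 21.9% when chlorpromazine was left out, 15.4% when thioridazine was, and 19.2% when either olanzapine or quetiapine was. In 3 of the 10 genes, Txnrd1, Srxn1 and Prdx1, 1 array stood apart from the other 3 by Dixon's criterion, as in 6.32% of all genes.

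**Figure D1:**
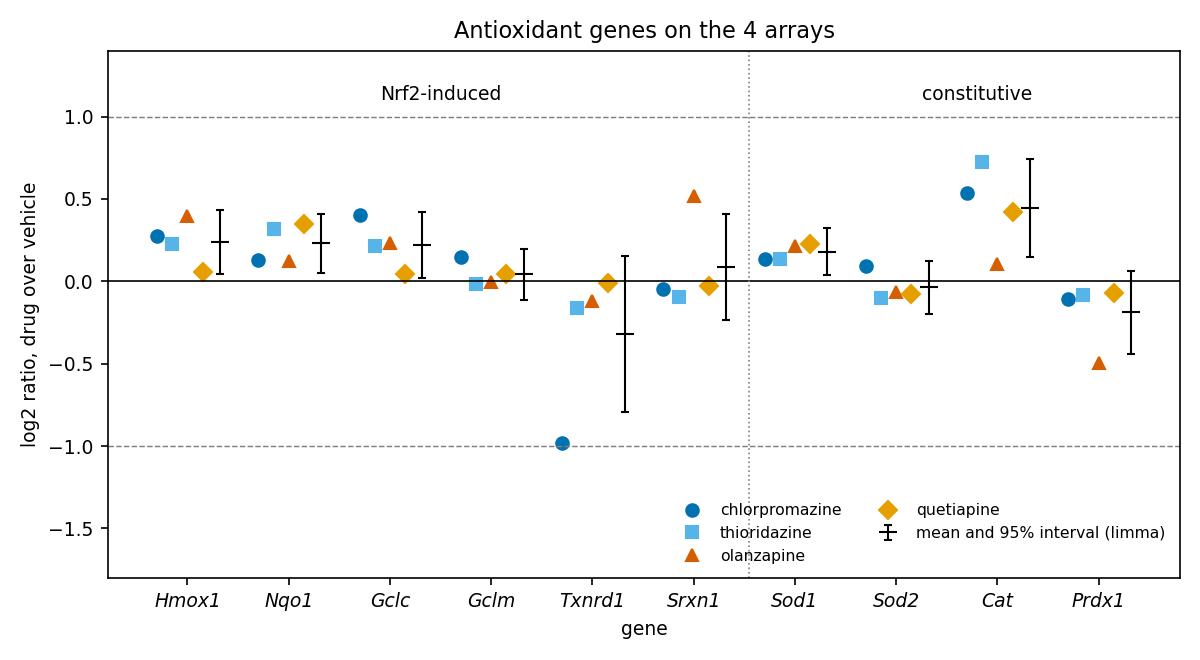
Log2 ratio of drug over vehicle (vertical axis) of each gene (horizontal axis) on each of the 4 arrays, as coloured points, with the 4-array mean and its 95% limma interval in black; dashed lines mark 2-fold. No point passes the dashed lines, and Txnrd1 after chlorpromazine, at -0.98, comes closest. The intervals of Hmox1, Nqo1, Gclc, Sod1 and Cat lie above 0. The intervals are not adjusted for the number of genes tested, and none of the genes shown passed the limma test after adjustment.

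Hmox1 encodes haem oxygenase 1, the inducible enzyme that opens haem to biliverdin, iron and carbon monoxide. Its log2 ratios were 0.28 after chlorpromazine, 0.23 after thioridazine, 0.40 after olanzapine and 0.058 after quetiapine. Quetiapine was the lowest of 4 values above 0. The mean was 0.24 ± 0.14 (SD, n = 4 arrays), or 1.18-fold with a 95% interval of 1.03 to 1.35, and the limma adjusted p was 0.152. Microglia and infiltrating macrophages are known to make Hmox1 strongly, and in tissue RNA a gain or loss of such cells cannot be told apart from a change of RNA per cell. The 8 measured of 10 microglia markers had medians of -0.46, 0.31, 0.038 and 0.078 for chlorpromazine, thioridazine, olanzapine and quetiapine, and single markers ran from -0.92 to 1.15. The 5 measured of 11 red cell genes, a sign of blood in the tissue, had medians of -0.020, 0.91, -1.14 and 0.34, with single genes from -1.87 to 1.16. After thioridazine alone the red cell genes ran from -1.01 to 1.16. Any part of these cells in the Hmox1 ratios was not tested.

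Nqo1, a quinone reductase widely used as a readout of Nrf2, had ratios of 0.13 after chlorpromazine, 0.32 after thioridazine, 0.12 after olanzapine and 0.35 after quetiapine. Its values formed a lower pair, chlorpromazine and olanzapine, and a higher pair, thioridazine and quetiapine. The mean was 0.23 ± 0.12 (SD, n = 4 arrays; limma adjusted p = 0.147). Quetiapine was the drug with the highest Nqo1 and the lowest Hmox1.

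Gclc and Gclm encode the catalytic and modifier subunits of glutamate-cysteine ligase, the first and limiting step of glutathione synthesis. Gclc had ratios of 0.40 after chlorpromazine, 0.22 after thioridazine, 0.23 after olanzapine and 0.043 after quetiapine, a mean of 0.22 ± 0.15 (SD, n = 4 arrays; limma adjusted p = 0.168). Gclm had 0.15, -0.014, -0.0054 and 0.046 for the drugs in the same order, a mean of 0.044 ± 0.075 with a 95% interval of -0.11 to 0.20, which was 0.0086 without chlorpromazine. Gclm stayed within 1.11-fold of vehicle on every array, and for both subunits chlorpromazine gave the highest ratio. Although both belong to 1 enzyme, only Gclc had 1 sign throughout, and a difference between the 2 genes was not tested.

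Txnrd1 and Srxn1 act on thiols: Txnrd1 is the cytosolic thioredoxin reductase, and Srxn1, sulfiredoxin, repairs peroxiredoxins that peroxide has overoxidised. Txnrd1 had a ratio of -0.98 after chlorpromazine, against -0.16 after thioridazine, -0.12 after olanzapine and -0.011 after quetiapine. The chlorpromazine value, 0.506-fold of vehicle, was lower than all but 0.929% of the genes on that array and rests on 1 feature. The mean was -0.32 ± 0.45 (SD, n = 4 arrays; limma adjusted p = 0.315), and without chlorpromazine it was -0.098.

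Srxn1 has 2 features, which disagreed. Feature 9571 gave 0.23 after chlorpromazine, 0.54 after thioridazine, 1.01 after olanzapine and 0.0021 after quetiapine. Feature 17202 gave -0.31, -0.73, 0.027 and -0.059 in the same order. The features lay on opposite sides of 0 on 3 of the 4 arrays and were 1.27 apart after thioridazine, more than the spread of their average over the drugs. Their average was -0.044 after chlorpromazine, -0.096 after thioridazine, 0.52 after olanzapine and -0.029 after quetiapine, a mean of 0.087 ± 0.29 (SD, n = 4 arrays), which became -0.056 without olanzapine and 0.15 without thioridazine. No direction can be given for Srxn1 from these values.

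**Figure D2:**
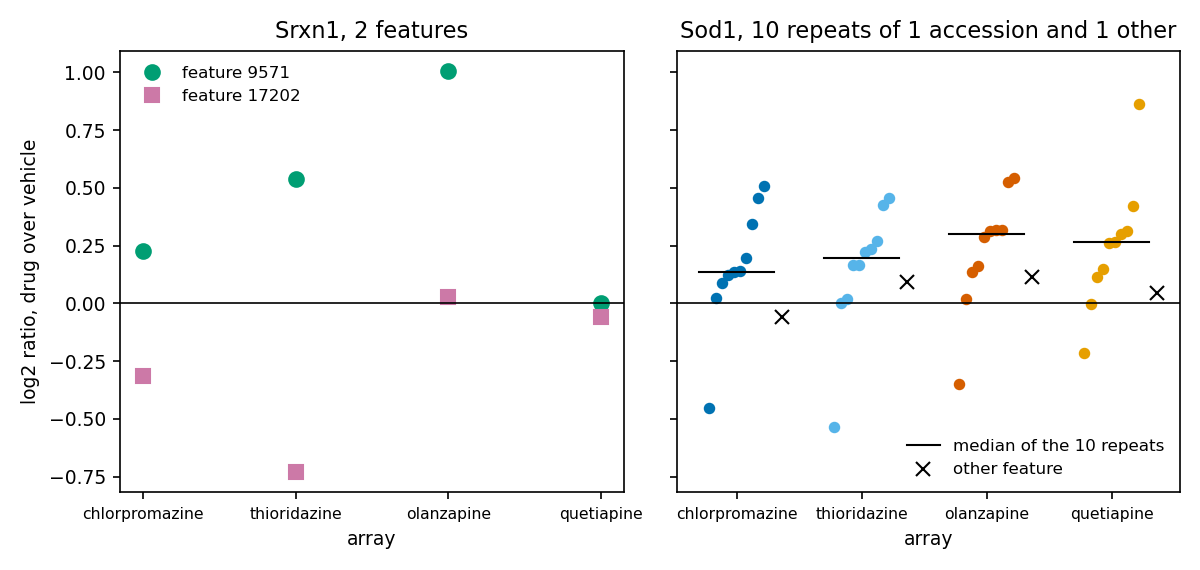
Log2 ratio of drug over vehicle (vertical axis) of the single features of Srxn1 (left) and Sod1 (right) on the 4 arrays (horizontal axis); on the right the points are 10 features of 1 accession in order of value, the bar their median and the cross the gene's other feature. The Srxn1 features part by 1.27 after thioridazine and 0.061 after quetiapine, and the Sod1 repeats range over 0.89 to 1.08 within an array.

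Among the constitutive enzymes, Sod1 is the copper and zinc superoxide dismutase of the cytosol and Sod2 the manganese enzyme of mitochondria. Sod1 averaged 0.14 after chlorpromazine, 0.14 after thioridazine, 0.22 after olanzapine and 0.23 after quetiapine over its 11 features. It had the smallest spread over drugs of the 10 genes, a mean of 0.18 ± 0.050 (SD, n = 4 arrays; limma adjusted p = 0.149). The other genes rest on 1 or 2 features, so their spreads are not measured like an average of 11. Of the 11 Sod1 features 10 carry 1 accession, and the sources used here do not say if they hold 1 oligonucleotide. Within an array those 10 ranged from -0.45 to 0.51 after chlorpromazine, -0.53 to 0.46 after thioridazine, -0.35 to 0.54 after olanzapine and -0.22 to 0.86 after quetiapine. At least 8 of the 10 lay above 0 on each array, but their standard deviation, 0.26 to 0.28, exceeded the spread of the Sod1 mean over drugs. The other feature gave -0.057, 0.091, 0.12 and 0.047 in the same drug order, below the median of the 10 on every array.

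Sod2 had ratios of 0.096 after chlorpromazine, -0.10 after thioridazine, -0.066 after olanzapine and -0.075 after quetiapine. It was above vehicle after chlorpromazine alone, and its mean of -0.036 ± 0.089 (SD, n = 4 arrays) had a 95% interval of -0.20 to 0.13. That mean was -0.081 without chlorpromazine and -0.015 without thioridazine.

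Cat encodes catalase, the peroxisomal enzyme that breaks down hydrogen peroxide. Its ratios were 0.53 after chlorpromazine, 0.73 after thioridazine, 0.10 after olanzapine and 0.42 after quetiapine. Cat had the highest mean of the 10 genes, 0.45 ± 0.26 (SD, n = 4 arrays), or 1.36-fold with a 95% interval of 1.11 to 1.67 and a limma adjusted p of 0.126. With chlorpromazine, thioridazine and quetiapine it lay above 95.7%, 95.9% and 91.2% of the genes on the array, and after olanzapine above 62.9%.

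Prdx1, a peroxiredoxin that reduces peroxides with electrons from thioredoxin, lay on the other side. Its ratios were -0.11 after chlorpromazine, -0.081 after thioridazine, -0.50 after olanzapine and -0.070 after quetiapine. Olanzapine stood apart from 3 nearly equal values. The mean was -0.19 ± 0.21 (SD, n = 4 arrays; limma adjusted p = 0.274), and -0.086 without olanzapine. Prdx1 is counted here as constitutive, but Nrf2 is known to raise it as well, and its window holds the response element core shown above.

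The Nrf2-induced genes were then set against the constitutive enzymes on each array. The median log2 ratio of the 6 induced genes was 0.14 after chlorpromazine, 0.10 after thioridazine, 0.18 after olanzapine and 0.044 after quetiapine. That of the 4 constitutive genes was 0.12, 0.028, 0.019 and 0.080 in the same order. The difference of medians was 0.023 after chlorpromazine, 0.073 after thioridazine, 0.16 after olanzapine and -0.035 after quetiapine. For accessions with 10 or more features, the median standard deviation between features was 0.061, 0.160, 0.164 and 0.101 in that order. Each difference of medians was smaller in size than this spread on its array. Such a spread between features is not the error of a difference of medians over genes. Some differences under the other choices below were larger than it, as with means after chlorpromazine and olanzapine. With 1 gene left out the difference ran from -0.043 to 0.19 after thioridazine and from -0.18 to 0.11 after quetiapine. Counted over features in place of genes it was -0.025 after olanzapine and -0.16 after quetiapine. Sod1 has 11 features and each other constitutive gene 1, so the constitutive median over features mostly reflects Sod1. On every array the values of the groups overlapped. Taken as means in place of medians, the differences were -0.18, -0.089, 0.25 and -0.050 in the same order, so the sign after chlorpromazine and after thioridazine depends on that choice.

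Of the induced genes 4, 3, 4 and 4 lay above 0 after chlorpromazine, thioridazine, olanzapine and quetiapine, and of the constitutive genes 3, 2, 2 and 2. Over all genes 51.4%, 50.9%, 52.2% and 50.9% did. Over the 4-array means, 5 of 6 induced genes, Srxn1 with its discordant features among the 5, and 2 of 4 constitutive genes were above 0, with medians of 0.16 and 0.072, against 51.0% of all genes and a median of 0.0053. With Prdx1 moved to the induced genes, the difference of medians was -0.0063 after chlorpromazine, -0.15 after thioridazine, 0.020 after olanzapine and -0.19 after quetiapine. The sign after chlorpromazine and thioridazine, and most of the difference after olanzapine, thus depend on where that gene is put. No test was made of these differences, since genes are not replicates of a drug.

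**Figure D3:**
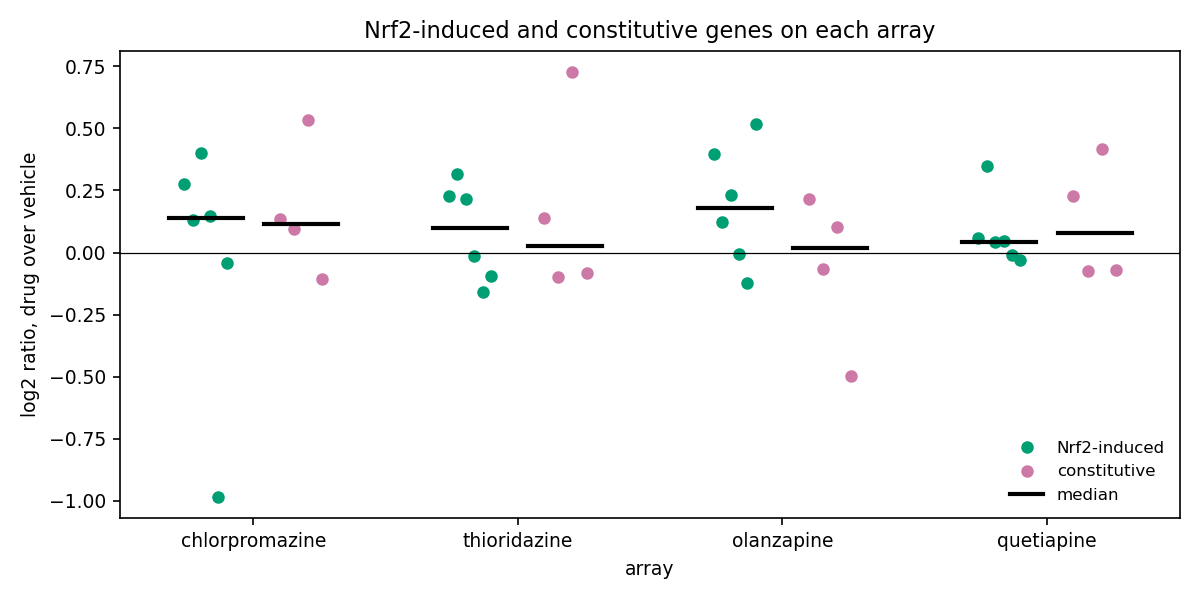
Log2 ratio of drug over vehicle (vertical axis) of the 6 Nrf2-induced genes (green, left of each pair) and the 4 constitutive genes (pink, right) on each array (horizontal axis), with black bars for medians. The groups overlap on all 4 arrays, and the medians differ by at most 0.16, after olanzapine.

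The drugs were compared by ring system. Chlorpromazine and thioridazine are phenothiazines, whereas olanzapine and quetiapine have a central ring of the azepine type. Doses in mg/kg differ between the classes, so class and dose cannot be told apart. With limma none of the 10 genes, and none of 16139, passed in the class difference (0% called); 0 of the 10 and 458 of 16139 genes (2.84%) had an unadjusted p under 0.05. The ordinary t statistic called 0 genes and gave 575 such a p, 1 of them among the 10. Cat had a mean of 0.63 with the phenothiazines and 0.26 with the azepine-ring drugs, a difference of 0.37 with a 95% interval of -0.14 to 0.88, and of 0.21 without olanzapine. For Txnrd1 the means were -0.57 and -0.067, a difference of -0.50 (95% interval -1.41 to 0.40), which was -0.093 without chlorpromazine and -0.92 without thioridazine. Srxn1 differed by -0.31, and by -0.59 to -0.042 with 1 array left out. Gclc differed by 0.17, and by 0.077 to 0.27 with 1 array left out. Sod1 differed by -0.086 and kept within -0.091 and -0.080 when an array was left out, but its single features ran from -0.49 to 0.12. Prdx1 differed by 0.19, Sod2 by 0.068, Gclm by 0.047, Hmox1 by 0.025 and Nqo1 by -0.012, and each of these 5 turned sign with some array left out. For Hmox1 the interval was -0.46 to 0.51 and for Nqo1 -0.47 to 0.44, so near-equal means do not show that the classes acted alike.

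Chlorpromazine and thioridazine alone were given at the same dose. They share the phenothiazine ring and differ in its substituent and in the side chain. At this dose Txnrd1 was -0.98 after chlorpromazine and -0.16 after thioridazine, Cat 0.53 and 0.73, Gclc 0.40 and 0.22, and Nqo1 0.13 and 0.32. Sod2, at 0.096 and -0.10, and Gclm, at 0.15 and -0.014, changed sign between these drugs. Hmox1 had 0.28 and 0.23, Sod1 0.14 and 0.14, Prdx1 -0.11 and -0.081, and the Srxn1 average -0.044 and -0.096. With 1 array each these differences could not be tested.

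The wider pathway was read from 88 further genes in 7 lists, of which 79 were measured and 78 were present on all 4 arrays. None passed the limma test of the mean, and the smallest adjusted p was 0.0754. An unadjusted p under 0.05 was found for 5 with a higher mean (6.41%, against 11.9% of all genes) and 10 with a lower one (12.8%, against 14.2%). Their median mean was -0.013, against 0.0053 over all genes.

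Of 10 genes for Nrf2 and its regulators 0 had an unadjusted p under 0.05, against 26.2% of all genes. The median of their 10 means was -0.13. Nfe2l2 itself was named with Keap1 for its role after the values were seen. Its ratios were -0.28 after chlorpromazine, -0.042 after thioridazine, -0.14 after olanzapine and -0.093 after quetiapine. They lay below 0 on 4 of 4 arrays, as in 18.9% of all genes. The Nfe2l2 mean was -0.14 (SE 0.066, limma adjusted p = 0.251). Keap1 had 0.023, -0.34, 0.18 and -0.48 in the same order. The small Maf partners differed in sign between drugs: Mafk had 0.36, -0.58, 1.20 and 0.84, and Maff had 0.0083, 0.22, 1.35 and -2.10. Mafg had the lowest mean of the list, -0.18, and -0.31 to -0.071 with 1 array left out.

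Among 26 glutathione enzymes 16 means lay above 0, against 51.0% over all genes, with a median of 0.087. An unadjusted p under 0.05 came with a higher mean in 4 (against 11.9% of all genes) and with a lower mean in 1 (against 14.2%). Gsta3, a glutathione transferase, had the highest, with ratios of 0.24, 0.87, 0.62 and 0.61 for chlorpromazine, thioridazine, olanzapine and quetiapine, and a limma adjusted p of 0.0964. The lowest was Gpx4, the peroxidase that acts on lipid peroxides in membranes, at -0.65, -0.27, -0.081 and -0.22. Both kept 1 sign on the 4 arrays, as did 40.3% of all genes, and neither passed. The Gpx4 mean was -0.31, and -0.19 without chlorpromazine, where it was no longer the lowest of the list.

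In the list of thioredoxin, peroxiredoxin and other superoxide genes 7 of 10 means lay below 0, and 2 had an unadjusted p under 0.05, both lower. Over all genes 51.0% of means lay above 0, and 14.2% had such a p with a lower mean. Sod3, the superoxide dismutase secreted into the extracellular space, had ratios of -0.53, -1.43, -0.45 and -1.18 in the order chlorpromazine, thioridazine, olanzapine and quetiapine. Its mean of -0.90 (SE 0.20, limma adjusted p = 0.108) was the lowest of all 78 genes, on the other side of 0 from Sod1. Txnip, an inhibitor of thioredoxin, had the highest mean of the list, 0.29, and 0.13 to 0.42 with 1 array left out.

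For NADPH, which both the glutathione and thioredoxin systems consume, 4 of 6 means lay below 0, and 3 of them had an unadjusted p under 0.05. The cytosolic isocitrate dehydrogenase Idh1 had the lowest, -0.56 (SE 0.16, limma adjusted p = 0.136), and its mitochondrial counterpart Idh2 the highest, 0.30, and 0.044 to 0.54 with 1 array left out. In the haem and iron list 5 of 6 means lay below 0, 2 of them with an unadjusted p under 0.05. Over all genes 51.0% of means lay above 0, and 14.2% had such a p with a lower mean. Blvra, the biliverdin reductase that acts after haem oxygenase, had a mean of -0.30 (SE 0.070, limma adjusted p = 0.115), while Hmox2, the constitutive haem oxygenase, had 0.0026.

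Of 11 other Nrf2 targets 5 means lay above 0, against 51.0% over all genes. An unadjusted p under 0.05 was found for 1 with a higher and 2 with a lower mean, against 11.9% and 14.2% of all genes. The exporter Abcc1 had ratios of 0.32, 0.93, 4.35 and 0.38 for chlorpromazine, thioridazine, olanzapine and quetiapine, so its mean of 1.49 rests on olanzapine and was 0.54 without it. Ugdh, an enzyme that supplies glucuronic acid for conjugation, lay between -0.36 and -0.30 on the 4 arrays, averaging -0.34 (SE 0.053; adjusted p = 0.0754 by limma). Among 9 genes of oxidant sources on all 4 arrays, the phagocyte oxidase subunits Ncf4 and Ncf1 had the highest and lowest means, 0.56 and -0.43. An unadjusted p under 0.05 was found for 0 of the 9, against 26.2% of all genes. With 1 array left out the mean of Ncf4 ran from 0.30 to 0.89 and that of Ncf1 from -0.65 to -0.18. Ratios of Ncf4 were -0.43, 1.19, 0.13 and 1.35 and those of Ncf1 0.0079, -0.78, -1.19 and 0.24 in the same drug order, which differ although both encode cytosolic subunits of 1 oxidase.

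Of the 14 genes with the highest or lowest mean of a list, 7 kept that place with each array left out: Sod3, Txnip, Idh1, Abcc1, Ugdh, Ncf4 and Ncf1. The place of the other 7 passed to another gene without at least 1 of the arrays.

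**Figure D4:**
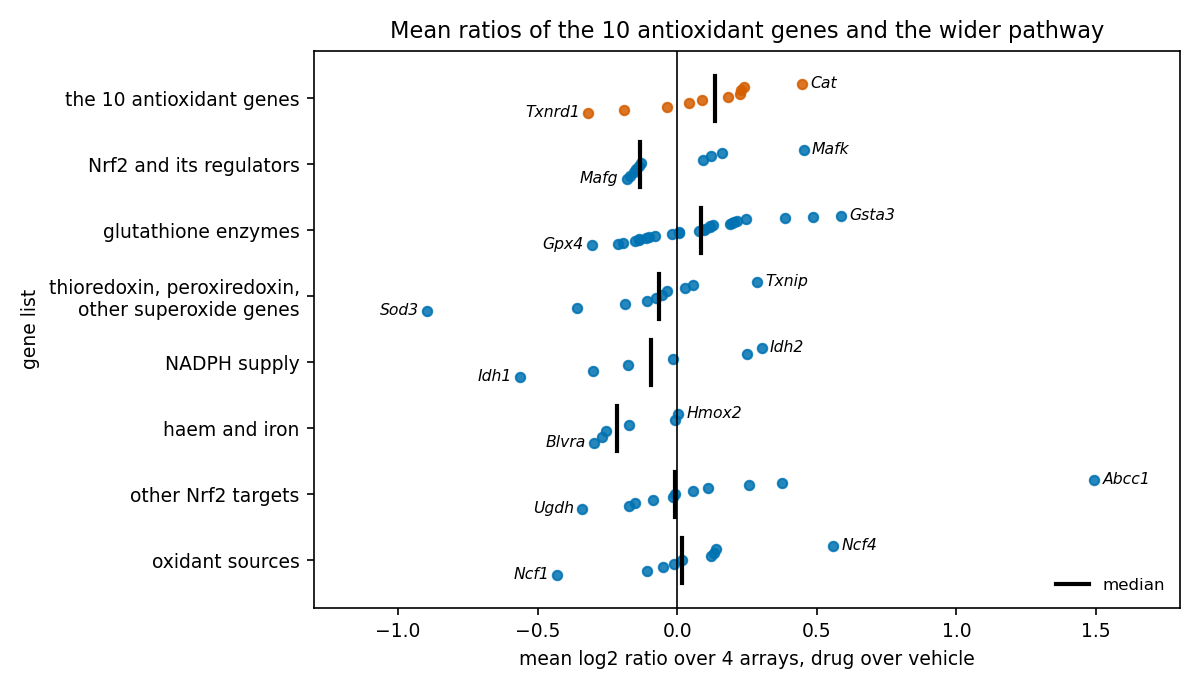
Mean log2 ratio of drug over vehicle over the 4 arrays (horizontal axis) for the 10 antioxidant genes (orange) and for 78 further genes in 7 lists (blue, vertical axis), with black bars for the medians and names for the lowest and highest gene of each list. Most means lie within 0.5 of 0; Sod3 at -0.90 and Abcc1 at 1.49 lie farthest out.

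The table gives ratios without signal, so whether cortical marker genes were expressed, and how far a spot lay from background, could not be seen. The spread of log2 ratios over genes was 0.33 to 0.59 on the 4 arrays, widest after olanzapine. Of the cell type lists, the 8 neutrophil markers had medians of -0.075 after chlorpromazine, 0.52 after thioridazine, 0.26 after olanzapine and 2.67 after quetiapine, where single genes ran from 0.0099 to 5.81. Medians of neuron, astrocyte, oligodendrocyte, endothelial and choroid plexus markers stayed between -0.16 and 0.23 on every array, while single markers of these lists ran from -2.31 to 3.59. Whether these cells had a part in the ratios of the antioxidant genes was not tested.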

How the data were processed

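Frontal cortex RNA of drug-treated and vehicle-treated mice was compared on 4 arrays. Per the labels, the authors scanned Agilent arrays, extracted spots with Feature Extraction 7.1 and normalised the dyes with a rank consistency filter and LOWESS. The deposited values were read as log10 ratios of red over green; the authors' centring and any filter on dim spots are not given in the sources used here. The deposited log10 medians were 0 on 3 arrays and 0.00376 with olanzapine.

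Of 22393 features, 18218 had 1 gene symbol, 16 several and 4159 none; 18175 symbols were updated by Entrez identifier through RefSeq (GRCm38.p6). Exact zeros (198 to 594 per array) were taken as missing, ratios put on the log2 scale, and features averaged per gene. Both tests used limma 3.58.1 in R 4.3.3 on 16139 genes present on all 4 arrays, with Benjamini-Hochberg adjustment, and were tested on simulated data. The simulated arrays were independent, whereas the real arrays correlated with each other over genes (Pearson r 0.26 to 0.52). The simulation thus cannot show the error rate of the test against 0 on these arrays. Arrays are not labelled as separate animals of 1 group, so p-values reflect only how far these arrays spread, and their number limits precision. Repeated features are the 48 accessions with 10 or more features.

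Members and lists were chosen with earlier results of these data known. Beside the 10 members, named genes are the highest and lowest mean of each list and any gene called by limma or 2-fold from vehicle on at least 2 arrays; Nfe2l2, Keap1, Prdx2 and Tkt were added after values were seen. Alternatives were zeros kept, single features, centring, scaling, ordinary or robust variance, each array or member left out, Prdx1 regrouped, means for medians, 1.5-fold and log2 reading.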

Additional observations from a re-analysis of the deposited data

Results flagged for a closer look

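The 4 values of a gene were screened for 1 array apart from the other 3, by a gap to its nearest neighbour above Dixon's 95% limit; the arrays are 4 drugs, not replicates of 1. Chance gives about 1 in 20 sets, and 6.32% of all genes met it. Among the 10 antioxidant genes 3 did. Txnrd1 stood apart after chlorpromazine at -0.98. Srxn1 stood apart after olanzapine at 0.52, where its 2 features read 1.01 and 0.027. Prdx1 stood apart after olanzapine at -0.50. Of the further pathway genes named, Abcc1 stood apart after olanzapine at 4.35, and Ugdh after thioridazine at -0.30, where the 4 values span only a narrow range. The cause was not tested for any of them.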

How the results depend on the processing

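With limma, 24 genes passed in the mean and 0 with the ordinary t statistic, which gave 3548 genes an unadjusted p under 0.05; with 1 array left out the count was 0 to 0. Of the 10 antioxidant genes 0 passed in either test under every alternative run. The mean of Srxn1 was -0.27 on its lower feature and -0.056 to 0.15 with 1 array left out; Maff ranged from -0.62 to 0.52 and Hmox2 from -0.073 to 0.078, and Hmox2 was -0.0062 with centred arrays. With 1 array left out the mean ran from 0.0086 to 0.063 for Gclm, -0.081 to -0.015 for Sod2, -0.42 to -0.098 for Txnrd1, -0.23 to -0.086 for Prdx1 and 0.20 to 0.80 for Mafk. The class difference ran from -0.92 to -0.093 for Txnrd1, -0.59 to -0.042 for Srxn1 and 0.21 to 0.53 for Cat. Class differences near 0 turned sign with 1 array left out: Hmox1 ranged from -0.14 to 0.19, Nqo1 from -0.12 to 0.10, Gclm from -0.034 to 0.13, Sod2 from -0.030 to 0.17 and Prdx1 from -0.024 to 0.40. Nqo1 was 0.014 with scaled arrays, and the class difference of Sod1 was -0.49 on its lowest and 0.12 on its highest feature. The genes among the 10 with an unadjusted p under 0.05 for the class difference were 0 in limma and 1 with the ordinary t statistic, and 0 to 1 with 1 array left out; for the mean they were 1 to 3. The difference of induced and constitutive medians moved to -0.18 after chlorpromazine and -0.089 after thioridazine when means were taken, to -0.0063 after chlorpromazine, -0.15 after thioridazine, 0.020 after olanzapine and -0.19 after quetiapine with Prdx1 regrouped, and to -0.025 after olanzapine and -0.16 after quetiapine with single features. With 1 gene left out it ran from 0.0028 to 0.044 after chlorpromazine, -0.043 to 0.19 after thioridazine, 0.074 to 0.24 after olanzapine and -0.18 to 0.11 after quetiapine. The constitutive median over single features mostly reflects Sod1, which has 11 of them. Genes 2-fold from vehicle became 695 after chlorpromazine and 825 after olanzapine on scaled arrays. Read as log2 they were 3, 8, 27 and 7 after chlorpromazine, thioridazine, olanzapine and quetiapine. With values read as log10, genes at least 1.5-fold from vehicle were 1131, 2186, 2865 and 2050 in the same order. No paired analysis was possible because each drug has 1 array. Signal over background is unknown, so dim spots could not be set aside.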

Other observations

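Prdx2, a peroxiredoxin abundant in neurons and red cells, was noticed after its values were seen. It has 10 features of 1 accession, all 10 below 0 on every array, with means of -0.48 after chlorpromazine, -0.22 after thioridazine, -0.41 after olanzapine and -0.33 after quetiapine. Their standard deviation within an array was 0.030 to 0.091, against 0.26 to 0.28 for the 10 Sod1 features. The Prdx2 mean of -0.36 (SE 0.068) had a limma adjusted p of 0.0936 and did not pass. Of all genes 18.9% lay below 0 on 4 of 4 arrays. The 10 features on an array measured the same RNA, so their evenness does not add replicates. The red cell medians were -0.020, 0.91, -1.14 and 0.34 in the same drug order. Single red cell genes ran from -0.29 to 0.039, -1.01 to 1.16, -1.87 to -0.44 and 0.18 to 0.54. Any part of red cells in the Prdx2 ratios was not tested.

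The 10 repeated Sod1 features were among the least even of the 48 repeated accessions on the chlorpromazine array, where their standard deviation ranked 2, and ranked 8, 13 and 9 after thioridazine, olanzapine and quetiapine. Whether they are 1 oligonucleotide was not tested.

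Tkt, transketolase of the pentose phosphate pathway, was also noticed after its values were seen. It had ratios of 0.86 after chlorpromazine and 0.60 after thioridazine, against -0.15 after olanzapine and -0.30 after quetiapine. The class difference of 0.96 (95% interval 0.50 to 1.41) had a limma adjusted p above 0.99, and 5 of 78 pathway genes had an unadjusted p under 0.05, against 2.84% of all genes.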
